A study of Rattus norvegicus with 16 samples.

Results

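Chemokines and chemokine receptors were examined in the right ventricular wall of the rat heart. Members were all measured genes whose symbol is Ccl, Cxcl, Cx3cl or Xcl with a number (the ligands) or Ccr, Cxcr, Cx3cr or Xcr with a number (the receptors). This gave 50 genes of 17245 measured. They were 33 ligands (20 Ccl, 11 Cxcl, Cx3cl1 and Xcl1) and 17 receptors (9 Ccr, 6 Cxcr, Cx3cr1 and Xcr1). Cxcl16 was not analysed here.

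The samples came from male Wistar rats of 160 to 180 g that had a sham operation or banding of the pulmonary artery, a constriction that raises the pressure the right ventricle works against. There were 7 CON arrays (the controls), 5 RVF+ arrays and 4 RVF arrays, all from right ventricular wall. The labels do not spell out RVF+ and RVF, give no time after surgery, no genotype and no age, and do not tell which operation each sample had. Array names combine the group with the sample number of the label, CON from 1 to 7, RVF+ from 8 to 12 and RVF from 13 to 16. Separate animals are not stated for the samples of any group; p-values therefore rest on the spread among these samples alone, which may be technical.

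Chemokines are small secreted proteins that guide leukocytes along gradients, and they are grouped as CC, CXC, CX3C and XC by the spacing of their first cysteines. They act through receptors with membrane-spanning helices that couple to inhibitory G proteins, and several ligands share a receptor. In the heart the Ccl2-Ccr2 pair is known for recruiting monocytes, Cx3cl1 and Cx3cr1 for monocytes and resident macrophages, Cxcl12 and Cxcr4 for stem cell and leukocyte retention, and Cxcl1 and Cxcl2 with Cxcr2 for neutrophils.

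Levels are RMA intensities on the log2 scale, where a difference of 1 is a 2-fold change in intensity, and a level is compared only with the same gene's level in other arrays. A gene is called near background where its mean over the 16 arrays lay below the median of all genes, 5.57. By this rule 17 members were above the limit (14 ligands and the receptors Ccr2, Cx3cr1 and Cxcr4) and 33 were near background (19 ligands and 14 receptors). Ccl3 (5.51), Ccr1 (5.33) and Ccl4 (5.31) lay just below the limit, and Ccl7 (5.70), Cxcr4 (5.80) and Ccl24 (5.82) just above it. Median intensities of the arrays ranged from 27.07 to 29.3 on the linear scale, and they differed by group. The highest CON median was 28.06 (CON 2), while the lowest RVF+ median was 28.31 (RVF+ 11). Among the RVF arrays only RVF 15 (27.95) had a median inside the CON range, and the others were above it. RVF+ 8 stood apart: over all genes its root mean square distance to the mean of CON was 0.711, against 0.157 to 0.212 in CON and 0.326 to 0.448 in RVF and the rest of RVF+. The 10 markers of ventricular cardiomyocytes were all above the limit, and their summed linear intensity was 44857 to 46953 in CON, 25022 in RVF+ 8, up to 39479 in the other RVF+ arrays and 37778 to 40254 in RVF.

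Against CON, Cx3cr1, the receptor for fractalkine, Cxcr4, the receptor for Cxcl12, and Ccl2, the main monocyte attractant, were higher in both RVF+ and RVF. Cxcl11, a ligand of Cxcr3, was lower in both. The ligands Ccl6, Ccl7 and Ccl19 were higher in RVF+, and their differences in RVF did not pass. Some of these calls ended when a single array was left out: Ccl2 in both groups, Ccl7 in RVF+ and Cxcr4 in RVF. Between RVF+ and RVF no member passed.

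In RVF+ against CON, 14 of 50 members passed at an adjusted p of 0.05 (28%), where 27.7% of all genes did, so the members passed about as often as other genes. The 8 higher members were Ccl2, Ccl6, Ccl7, Ccl19, Ccr7, Cx3cr1, Cxcr4 and Cxcr5 (16%, against 14.1% of all genes). The 6 lower members were Ccl1, Ccl28, Ccr8, Ccr10, Cxcl11 and Xcl1 (12%, against 13.6%). Among the 17 brighter members 6 were higher and 1 lower, where 18.9% of the genes above the limit were higher and 21.3% lower. Among the 33 members near background 2 were higher and 5 lower, against 9.2% and 5.96% of such genes. In RVF against CON, 7 of 50 members passed (14%, against 17.1% of all genes). Ccl2, Ccl27, Ccr7, Cx3cr1 and Cxcr4 were higher (10%, against 8.86%), and Ccr8 and Cxcl11 were lower (4%, against 8.29%). The median log2 difference of the members was 0.132 in RVF+ and 0.072 in RVF, beside -0.012 and -0.009 over all genes. For the 17 brighter members it was 0.370 and 0.284, with 13 and 12 of them above 0. Without RVF+ 8, 11 members passed in RVF+ (6 higher, 5 lower), 10 of them among the 14 above, where 24.9% of all genes passed, and the median difference of the 50 members was 0.023. Both comparisons use the same 7 CON arrays.

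**Figure D1:**
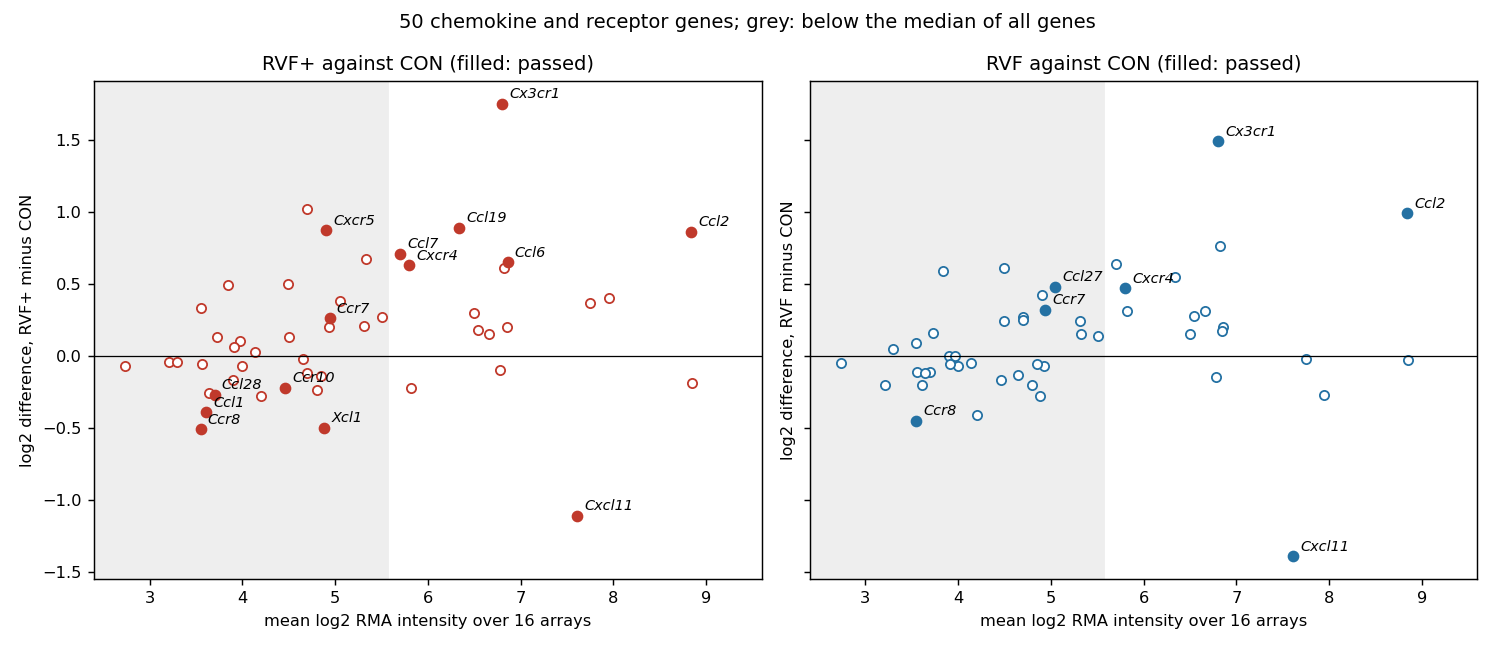
Log2 difference from CON (vertical axis) against mean log2 RMA intensity over 16 arrays (horizontal axis) for the 50 members, with RVF+ on the left and RVF on the right; filled points passed and the grey band marks levels below the median of all genes. In RVF+ 6 of the 7 members that passed above the band lie over 0, with Cx3cr1 highest at 1.75 and Cxcl11 lowest at -1.11, and in RVF 33 members share the band, of which 3 passed.

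Groups whose arrays do not overlap at all were a further description. In RVF+ 14.6% of all genes were separate in this way, where 27.7% passed. In RVF 18.8% were, where 17.1% passed, so there it was not stricter than the calls. In RVF+ every array lay above every CON array for Cx3cr1, Cxcr4 and Cxcr5, and below for Ccr8. These are 6% and 2% of members, where 6.96% and 7.63% of all genes showed such a separation. In RVF the genes wholly above CON were Ccl2, Cx3cl1, Cx3cr1 and Cxcr4 (8%, against 9.83% of all genes), and those wholly below were Ccr8 and Cxcl11 (4%, against 9%). Cx3cl1 did not pass in RVF (adjusted p = 0.148, limma).

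The promoters of Ccl7, Cxcl11 and Cxcr4 are printed because these members passed above the background limit and hold at least 1 of the motifs searched; each is the 250 bases before the gene's start, 5′ to 3′ along the gene, from RefSeq (assembly GRCr8). Capitals mark matches to a motif on either strand.
Ccl7 promoter, chr10:67513845-67514094, plus strand: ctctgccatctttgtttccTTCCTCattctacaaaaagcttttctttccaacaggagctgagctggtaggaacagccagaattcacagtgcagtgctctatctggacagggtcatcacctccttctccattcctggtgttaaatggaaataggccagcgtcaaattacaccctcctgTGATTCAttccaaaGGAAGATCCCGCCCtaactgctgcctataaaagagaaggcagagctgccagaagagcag
Cxcl11 promoter, chr14:15973478-15973727, plus strand: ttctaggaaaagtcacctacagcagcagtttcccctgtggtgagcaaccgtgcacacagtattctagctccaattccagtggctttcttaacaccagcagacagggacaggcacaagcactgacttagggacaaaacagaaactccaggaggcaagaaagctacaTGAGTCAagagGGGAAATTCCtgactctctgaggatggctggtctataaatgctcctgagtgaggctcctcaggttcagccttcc
Cxcr4 promoter, chr13:42634289-42634538, minus strand: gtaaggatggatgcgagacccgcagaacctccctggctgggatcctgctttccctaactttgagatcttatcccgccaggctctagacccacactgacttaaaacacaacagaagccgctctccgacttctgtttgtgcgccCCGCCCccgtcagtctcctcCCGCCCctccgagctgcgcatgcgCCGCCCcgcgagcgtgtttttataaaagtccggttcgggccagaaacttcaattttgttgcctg

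The motifs searched on both strands were the NF-kappaB consensus, the AP-1 site TGANTCA, the Sp1 box GGGCGG and the PU.1 core GAGGAA. Cxcl11, which was lower in both groups, and Ccl7, which was higher in RVF+, each held an NF-kappaB match and an AP-1 match within 85 bases of the start. In Ccl7 the NF-kappaB match (GGAAGATCCC on the printed strand) overlaps the Sp1 match, and a PU.1 match lies further from the start. Cxcr4 held 3 Sp1 boxes. The windows of Ccl6, Ccl19 and Cx3cr1 held none of these letters, which says nothing about the factors. Of the 38 members with a RefSeq promoter, which do not include Ccl2, 9 (23.7%) held the NF-kappaB consensus and 7 (18.4%) the AP-1 site, where 6.33% and 6.34% of 33469 promoters of this length did. The Sp1 box was in 10 (26.3%, against 30.5%) and the PU.1 core was in 16 (42.1%, against 23.3%). The 9 members with the NF-kappaB consensus were Ccl7, Ccl9, Ccl20, Ccr3, Cxcl1, Cxcl2, Cxcl6, Cxcl10 and Cxcl11, of which Ccl7 and Cxcl11 passed in either comparison with CON, in opposite directions. A match is a description of the letters and not a bound site.

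Among the inducible CC ligands, which tissue and immune cells make on injury or infection, 15 genes were measured and 10 were near background. Ccl2, Ccl6 and Ccl7 were higher and Ccl1 lower in RVF+, and Ccl2 was higher in RVF. Ccl2, also called MCP-1, measured 7.43, 8.54 and 8.82 (lowest, median and highest) in CON. It was 10.11, 8.36, 9.10, 9.28 and 9.09 in RVF+ 8 to 12, and 9.08, 9.74, 9.52 and 8.93 in RVF 13 to 16. RVF+ 8 was the highest array, RVF+ 9 lay inside the range of CON, and all 4 RVF arrays lay above it. The difference was 0.86 ± 0.27 (SE) in RVF+ (1.82-fold, adjusted p = 0.0223, limma) and 0.99 ± 0.29 in RVF (1.99-fold, adjusted p = 0.0232, limma). Both calls rest on single arrays: without RVF+ 8 the RVF+ difference was 0.63 (adjusted p = 0.0670), and without RVF 14 or RVF 15 the RVF difference was 0.85 (0.0891) or 0.92 (0.0697). With array quality weights the RVF+ difference was 0.63 (0.0966).

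Ccl7, or MCP-3, attracts monocytes through the same receptor and is the neighbour of Ccl2 in the genome. It measured 5.03, 5.24 and 5.87 in CON (lowest, median, highest), 7.01, 5.25, 5.98, 6.00 and 5.87 in RVF+ 8 to 12, and 5.73, 6.36, 6.19 and 5.55 in RVF 13 to 16. RVF+ 8 was again the highest, RVF+ 9 sat at the middle of CON, and 2 of 4 RVF arrays were above all CON arrays. The RVF+ difference was 0.71 ± 0.23 (1.63-fold, adjusted p = 0.0296, limma) and was 0.46 (0.0815) without RVF+ 8 and 0.44 (0.144) with array quality weights. It also missed the threshold without CON 2 (0.0573), CON 5 (0.0548) or CON 6 (0.0546). In RVF the difference was 0.64 ± 0.25 (adjusted p = 0.0860, limma), and it passed when only the RVF and CON arrays were fitted (0.0156). Ccl11, Ccl12 and Ccl1 follow Ccl2 and Ccl7 with no other coding gene between them. Ccl12, a further monocyte attractant near background, differed by 0.49 in RVF+ (adjusted p = 0.0635, limma) and 0.59 in RVF (0.0517). It passed in RVF+ without CON 7 (0.0380), and in RVF without CON 4 (0.0439), CON 7 (0.0342) or RVF 16 (0.0383). RVF+ 8 (4.88) was the only RVF+ array above all CON arrays for Ccl12. Without RVF+ 8 its RVF+ difference was 0.27 (0.186). Ccl11, or eotaxin, which attracts eosinophils, differed by -0.17 (0.236) and -0.00 (0.990).

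Ccl6 is a rodent chemokine made by myeloid cells. It measured 6.42, 6.59 and 6.92 in CON, 7.95, 6.80, 7.52, 7.26 and 6.76 in RVF+ 8 to 12, and 6.26, 7.21, 6.78 and 6.99 in RVF 13 to 16. In RVF+ 3 of 5 arrays exceeded all CON arrays, while the RVF arrays lay on both sides of the CON range. The difference was 0.65 ± 0.19 in RVF+ (1.57-fold, adjusted p = 0.0152, limma; 0.48 and 0.0431 without RVF+ 8) and 0.20 ± 0.20 in RVF (0.556). RVF+ exceeded RVF by 0.45 (95% interval -0.00 to 0.90). Ccl9, its neighbour and a ligand of Ccr1, was split within RVF+: 7.06, 3.91, 3.72, 5.98 and 6.00 in RVF+ 8 to 12, beside 3.67, 4.50 and 4.76 in CON and 5.67, 4.23, 4.36 and 4.08 in RVF. RVF+ 8, 11 and 12 were above every CON array and RVF+ 9 and 10 were within CON. The RVF+ difference was 1.02 (adjusted p = 0.120, limma). It was 0.59 (0.346) without RVF+ 8, 1.37 (0.0342) without RVF+ 9 and 1.42 (0.0248) without RVF+ 10.

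Of the other inducible CC ligands Ccl1 alone passed. Ccl5, or RANTES, which attracts T cells and monocytes, ranged from 6.69 to 7.02 in CON, from 6.43 to 7.07 in RVF+ and from 6.57 to 6.87 in RVF, with differences of -0.10 (adjusted p = 0.520, limma) and -0.15 (0.442). Ccl3 and Ccl4, the macrophage inflammatory proteins, differed by 0.27 (0.408) and 0.21 (0.372) in RVF+, and by 0.14 (0.748) and 0.24 (0.383) in RVF. Ccl3 was highest in CON 7 (6.47), with the other CON arrays at 4.94 to 5.59. Ccl24, an eosinophil attractant, was 5.58, 5.73, 5.38, 5.90 and 5.36 in RVF+ 8 to 12 and 6.51, 6.01, 5.82 and 6.16 in RVF 13 to 16. All RVF arrays but RVF 15 exceeded all RVF+ arrays, and CON spanned 5.46 to 6.25. Ccl17 and Ccl22, the ligands of Ccr4, Ccl20, the ligand of Ccr6, and Ccl26 were near background in every group, with differences from CON between -0.11 and 0.24. Ccl1, a ligand of Ccr8 near background, had means of 3.78 in CON, 3.40 in RVF+ and 3.58 in RVF. It was lower in RVF+ (-0.39 ± 0.10, adjusted p = 0.00628, limma), and its RVF difference was -0.20 (0.210).

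The homeostatic CC ligands place lymphocytes and dendritic cells in lymphoid tissue, gut and skin. Of the 5 measured, Ccl19 was higher in RVF+ and Ccl27 in RVF, and Ccl28 was lower in RVF+. Ccl19, a ligand of Ccr7, measured 5.52, 5.91 and 6.37 in CON, 7.92, 6.36, 7.07, 6.32 and 6.39 in RVF+ 8 to 12, and 6.56, 6.63, 6.53 and 6.15 in RVF 13 to 16. RVF+ 8 and 10 were the highest arrays, and 3 of 5 RVF+ and 3 of 4 RVF arrays lay above all CON arrays. The difference was 0.89 ± 0.23 in RVF+ (1.85-fold, adjusted p = 0.00794, limma; 0.61 and 0.0104 without RVF+ 8) and 0.55 ± 0.25 in RVF (0.150; 0.0148 when only RVF and CON were fitted). Ccl21, the other ligand of Ccr7, varied most within RVF: 7.13, 5.20, 8.31 and 9.82 in RVF 13 to 16, while CON spanned 7.46 to 8.58 and RVF+ 8.01 to 8.97. RVF held both the lowest and the highest array of the series for this gene, and its differences were 0.40 in RVF+ (adjusted p = 0.603, limma) and -0.27 in RVF (0.784).

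Ccl27, a skin chemokine whose gene overlaps Il11ra1, had means of 4.82 in CON, 5.19 in RVF+ and 5.29 in RVF. It passed in RVF (0.48 ± 0.16, adjusted p = 0.0431, limma), but leaving out any 1 of the arrays compared other than CON 2 ended the call (adjusted p up to 0.122), as did quantile normalization (0.0709) and centring (0.0605). Its RVF+ difference was 0.38 (0.0639) and passed without CON 2 (0.0385) or RVF+ 11 (0.0125). Ccl28, a mucosal chemokine, had means of 3.81, 3.54 and 3.70, and its RVF+ difference of -0.27 ± 0.10 (0.0448) reached an adjusted p of up to 0.109 when 1 array was left out. Ccl25, which attracts thymocytes, differed by -0.04 and -0.20. These 3 ligands were near background.

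**Figure D2:**
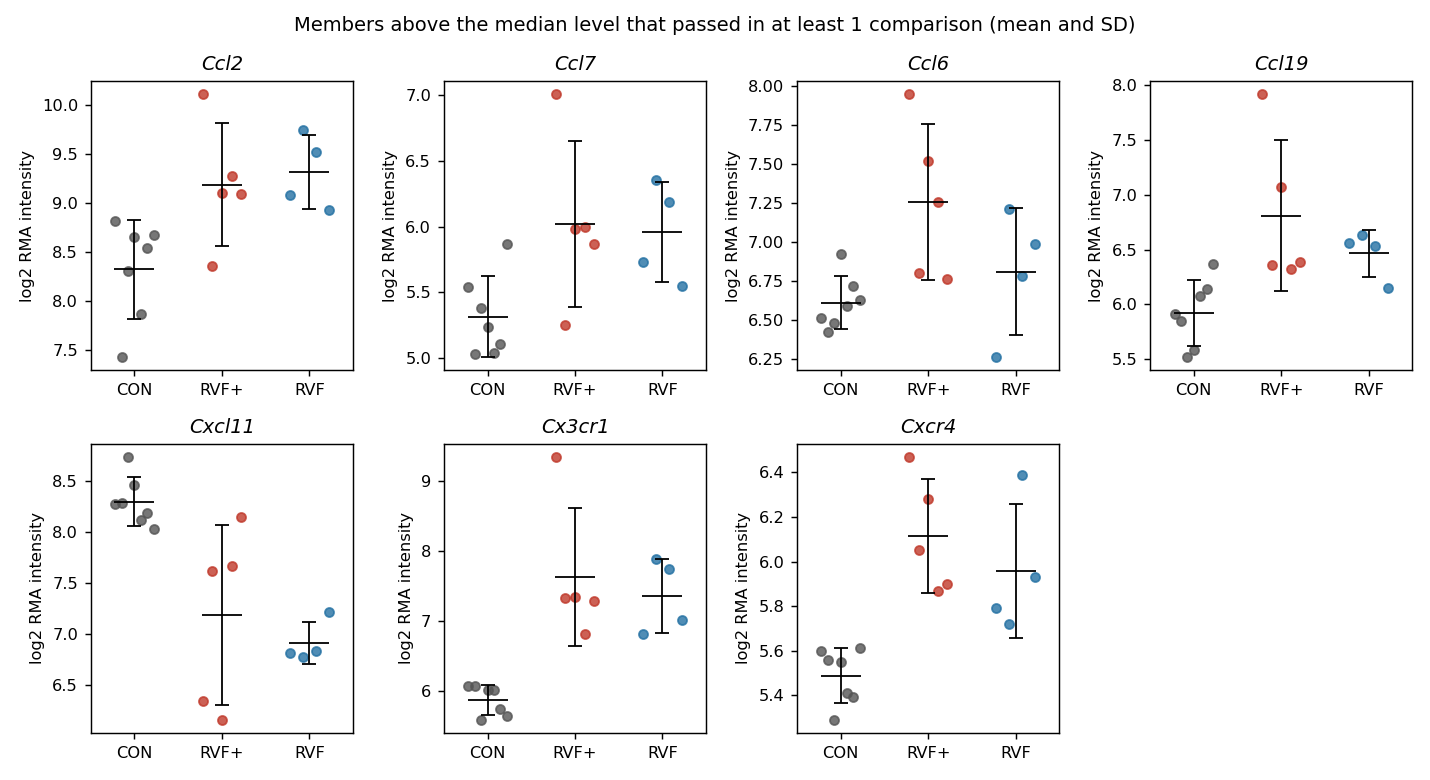
Log2 RMA intensity (vertical axis) in each array of CON, RVF+ and RVF (horizontal axis) for the 7 members above the background limit that passed in at least 1 comparison; points are arrays, and bars are the group mean and SD. Cx3cr1 and Cxcr4 show no overlap of RVF+ or RVF with CON, Cxcl11 lies below CON in all but 1 of the RVF+ and RVF arrays, and 1 RVF+ array, at 9.35 for Cx3cr1, is far above the others.

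The CXC ligands that interferon induces bind Cxcr3 on activated T cells and natural killer cells. Of these 3 ligands Cxcl11 was lower in both groups, while Cxcl9 and Cxcl10, which lie next to it in the genome, did not pass. Cxcl11 measured 8.03, 8.28 and 8.74 in CON, 6.34, 7.62, 6.16, 7.67 and 8.15 in RVF+ 8 to 12, and 6.82, 6.78, 6.83 and 7.22 in RVF 13 to 16. The RVF arrays were all below every CON array, RVF+ 8 and 10 were the lowest of all, and only RVF+ 12 reached the range of CON. The difference was -1.11 ± 0.27 in RVF+ (2.16-fold lower, 4 of 5 arrays below all CON, adjusted p = 0.00486, limma) and -1.39 ± 0.29 in RVF (2.62-fold lower, 4 of 4, 0.00274). Both passed with any 1 array left out. The gene lies within the model of Art3, an ADP-ribosyltransferase gene, on the opposite strand. Cxcl10 also overlaps the Art3 model on the opposite strand. Art3 had means of 8.90 in CON, 8.60 in RVF+ and 8.59 in RVF and was lower in both (-0.30, 0.0103, and -0.30, 0.0204, the latter 0.0710 without RVF 13), and its part in the Cxcl11 values was not tested.

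Cxcl9 measured 6.46, 6.72 and 7.07 in CON, 6.38, 7.24, 6.59, 7.29 and 7.24 in RVF+ 8 to 12, and 6.82, 7.05, 7.02 and 6.75 in RVF. Cxcl10 measured 6.03, 6.29 and 7.11 in CON, 7.85, 5.96, 5.64, 6.73 and 6.80 in RVF+ 8 to 12, and 6.20, 6.84, 7.18 and 6.56 in RVF. Within RVF+ the arrays lay on both sides of CON for either gene. The differences were 0.20 (adjusted p = 0.362, limma) and 0.17 (0.544) for Cxcl9, and 0.18 (0.691) and 0.28 (0.594) for Cxcl10. Without RVF+ 8 the RVF+ differences were 0.34 (0.0677) and -0.13 (0.744). Ifng, the interferon of T cells and natural killer cells that induces these ligands, was near background and differed by -0.11 (0.510) and -0.06 (0.794). Cxcr3, their receptor, was near background with differences of -0.14 (0.254) and -0.06 (0.694). With quantile normalization or centring of the arrays its RVF+ difference was -0.24 (0.0348) or -0.23 (0.0477).

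The CXC ligands that attract neutrophils through Cxcr2 did not pass, and their arrays were spread widely within each group. Cxcl1 measured 5.42, 6.55 and 7.19 in CON, 7.38, 6.15, 7.33, 7.11 and 5.35 in RVF+ 8 to 12, and 5.69, 6.81, 7.04 and 6.52 in RVF 13 to 16. Cxcl2, near background, measured 3.22, 5.31 and 6.39 in CON, 5.33, 4.06, 6.78, 6.06 and 3.21 in RVF+, and 3.75, 5.48, 5.39 and 4.63 in RVF. For Cxcl2 the CON arrays alone covered 3.22 to 6.39, and RVF+ 12 was as low as the lowest of them. The receptor Cxcr2 measured 3.33, 3.87 and 5.69 in CON, 5.13, 4.06, 6.15, 4.20 and 3.87 in RVF+, and 4.27, 5.14, 5.55 and 4.19 in RVF. CON 7 and RVF+ 10 were the highest arrays of their groups for both Cxcl2 and Cxcr2. The differences of the 3 genes from CON lay between -0.07 and 0.61, with adjusted p-values of 0.405 to 0.955 (limma). None of 11 neutrophil markers passed in limma in either comparison (at an unadjusted p of 0.05, 1 in RVF+ and 0 in RVF), and 10 of them were near background. Their median difference was 0.37 in RVF+ (0.22 without RVF+ 8) and 0.32 in RVF, beside -0.012 and -0.009 over all genes. Their summed intensity without Cxcr2 was 149 to 323 in CON, with CON 7 highest. It was 553, 232, 645, 188 and 203 in RVF+ 8 to 12 and 222, 294, 434 and 239 in RVF 13 to 16, and its part in the Cxcl2 and Cxcr2 values was not tested. Cxcl3, Cxcl6 and Cxcr1, a second receptor for such ligands, were near background, with differences of -0.26 to 0.06. The lowest of these, Cxcl6 in RVF+, had an adjusted p of 0.0527, and it passed without CON 7 (0.0185) or RVF+ 9 (0.0229).

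**Figure D3:**
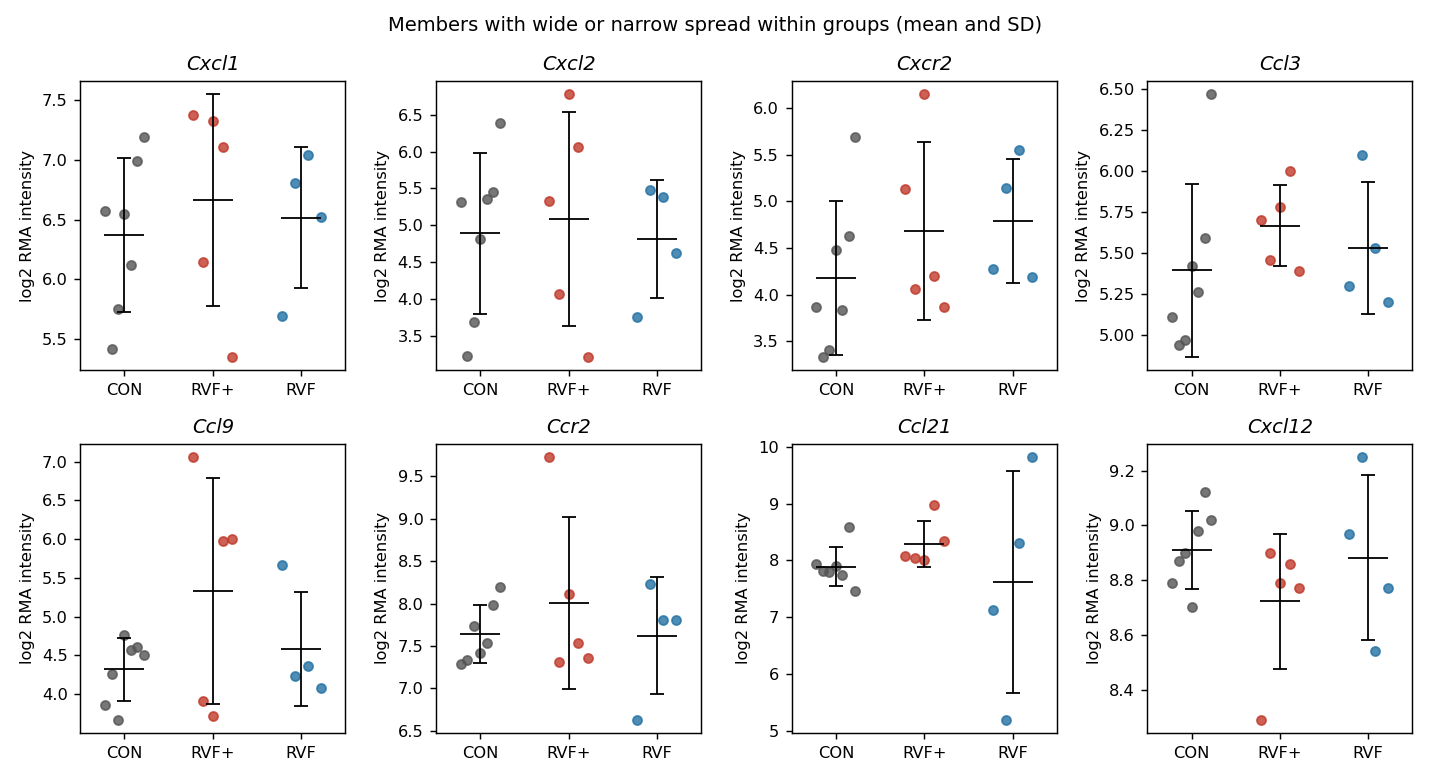
Log2 RMA intensity (vertical axis, a separate scale for each gene) in each array of CON, RVF+ and RVF (horizontal axis) for 8 members; points are arrays, and bars are the group mean and SD. Cxcl2 ranges from 3.22 to 6.39 within CON, Ccl21 from 5.20 to 9.82 within RVF and Ccl9 from 3.72 to 7.06 within RVF+, whereas Cxcl12 stays between 8.29 and 9.25 in all arrays.

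Among the other CXC ligands, Cxcl12, or SDF-1, which holds Cxcr4-bearing cells in tissue, measured 8.70, 8.90 and 9.12 in CON. It was 8.29, 8.90, 8.79, 8.86 and 8.77 in RVF+ 8 to 12 and 8.97, 9.25, 8.54 and 8.77 in RVF 13 to 16. RVF+ 8 was the lowest array and the others overlapped CON, with differences of -0.19 (95% interval -0.45 to 0.07, adjusted p = 0.275, limma) and -0.03 (0.906). Ackr3, which scavenges Cxcl12, differed by -0.12 (0.742) and -0.01 (0.988). Cxcl13, the B cell attractant that binds Cxcr5, measured 5.56, 6.44 and 7.89 in CON, 7.80, 6.43, 7.79, 6.28 and 6.94 in RVF+ 8 to 12, and 7.72, 7.10, 7.04 and 6.91 in RVF 13 to 16. CON 4 alone reached 7.89, and every RVF array was above the other 6 CON arrays, whose highest was 6.56. The differences were 0.61 (0.197) and 0.76 (0.172), and without CON 4 they were 0.86 (0.0294) and 1.00 (0.0281). Without RVF+ 8 the RVF+ difference was 0.42 (0.419). Cxcl14 and Cxcl17 were near background, with differences of -0.41 to 0.03 that did not pass.

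Cx3cl1, or fractalkine, is a membrane-bound ligand of endothelial and other cells that is also shed. It measured 6.43, 6.57 and 6.60 in CON, 6.08, 6.66, 6.64, 7.24 and 6.79 in RVF+ 8 to 12, and 6.70, 7.02, 6.87 and 6.78 in RVF 13 to 16. CON was narrow, RVF+ 8 was below it, and the other 4 RVF+ arrays and all 4 RVF arrays were above it. The RVF+ difference was 0.15 (adjusted p = 0.436, limma), and without RVF+ 8 it was 0.30 (0.0356). The RVF difference was 0.31 (0.148); fitted on RVF and CON alone, the adjusted p was 0.00530. Xcl1, or lymphotactin, made by natural killer cells and CD8+ T cells, was near background, with means of 5.10 in CON, 4.60 in RVF+ and 4.82 in RVF. It was lower in RVF+ (-0.50 ± 0.12, 1.41-fold, adjusted p = 0.00491, limma), with 4 of 5 arrays below all CON arrays, and its RVF difference was -0.28 (0.153; 0.0285 when only RVF and CON were fitted). Of 8 natural killer cell markers, 6 of them near background, Klrd1 (-0.89 and -0.84) and Ncr1 (-0.44 and -0.54) were lower in both comparisons and Gzma was higher in RVF (0.66; 0.45 and an adjusted p of 0.0966 without RVF 16). Their summed intensity was 320 to 406 in CON; RVF+ ranged from 266 to 373 and RVF from 285 to 347. Their part in the Xcl1 values was not tested.

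**Figure D4:**
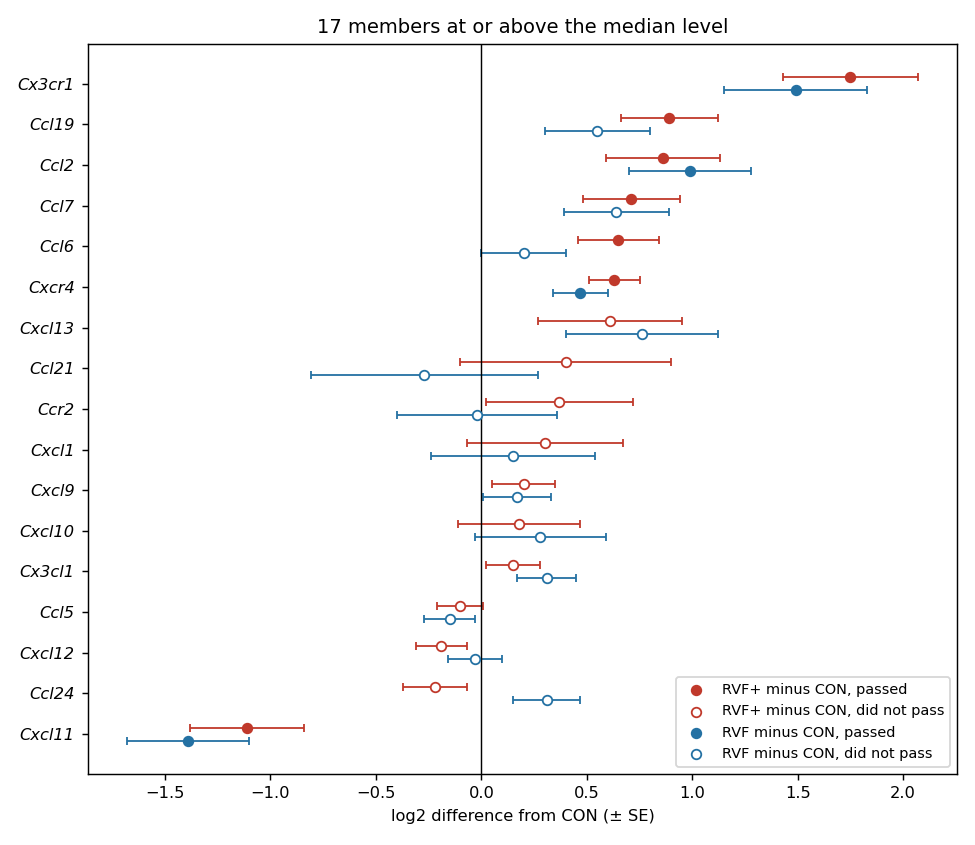
Log2 difference from CON with its SE (horizontal axis) for the 17 members above the background limit (vertical axis), in RVF+ and in RVF; filled points passed. Cx3cr1 has the largest rise (1.75 and 1.49) and Cxcl11 the largest fall (-1.11 and -1.39), and Ccl6 differs by 0.65 in RVF+ and 0.20 in RVF.

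Of the receptors, Cx3cr1 changed most. It marks monocytes and resident macrophages and measured 5.59, 6.01 and 6.08 in CON, 9.35, 7.33, 7.35, 6.82 and 7.29 in RVF+ 8 to 12, and 6.81, 7.89, 7.74 and 7.02 in RVF 13 to 16. Every RVF+ and RVF array lay above every CON array, and RVF+ 8 was well above the rest. The difference was 1.75 ± 0.32 in RVF+ (3.36-fold, adjusted p = 0.000534, limma) and 1.49 ± 0.34 in RVF (2.81-fold, 0.00549). Leaving out 1 array at a time gave 1.32 to 1.95 and 1.31 to 1.67, and both always passed. Cxcr4 measured 5.29, 5.55 and 5.61 in CON, 6.47, 6.05, 6.28, 5.87 and 5.90 in RVF+ 8 to 12, and 5.79, 5.72, 6.39 and 5.93 in RVF 13 to 16. Again no array of either group overlapped CON. The difference was 0.63 ± 0.12 in RVF+ (1.55-fold, adjusted p = 0.000857, limma) and 0.47 ± 0.13 in RVF (1.39-fold, 0.0180), and without RVF 15 the latter was 0.33 (0.0870).

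Macrophage and monocyte markers rose beside these receptors. Of 16 measured, 14 passed as higher in RVF+ (median difference 1.04) and 10 in RVF (0.81), with none lower. Over all genes 14.1% were higher in RVF+ and 8.86% in RVF. The complement genes C1qa (1.27 and 1.04), C1qc (1.18 and 0.94) and C1qb (1.05 and 0.68), and Adgre1, a macrophage surface receptor (0.83 and 1.04), passed in both. Their summed intensity was 1165 to 1677 in CON; RVF+ ranged from 2286 to 6512 and RVF from 2021 to 2737, and RVF+ 8 held the 6512. Without RVF+ 8 the same number, 14, passed in RVF+, with a median of 0.78. Their part in the values of Cx3cr1, Ccl2 and the other members was not tested, and in bulk tissue more cells of a type and more RNA per cell cannot be told apart.

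Ccr2, the receptor for Ccl2 and Ccl7 on inflammatory monocytes, did not pass. It measured 7.29, 7.53 and 8.20 in CON, 9.73, 7.31, 8.11, 7.54 and 7.36 in RVF+ 8 to 12, and 6.63, 8.23, 7.81 and 7.81 in RVF 13 to 16. Apart from RVF+ 8 all RVF+ arrays lay within CON, and RVF 13 lay below it. The differences were 0.37 (95% interval -0.37 to 1.12, adjusted p = 0.481, limma) in RVF+, where it was -0.06 (0.899) without RVF+ 8, and -0.02 (0.979) in RVF. Ccr1, a receptor for Ccl3 and Ccl5 near background, was 7.16, 5.46, 5.47, 5.60 and 5.10 in RVF+ 8 to 12, beside 4.60, 5.16 and 5.41 in CON and 4.95, 5.60, 4.96 and 5.44 in RVF. RVF+ 8 was highest and 4 of 5 RVF+ arrays were above all CON arrays. Its RVF+ difference was 0.67 (0.0689), with 0.32 (0.166) without RVF+ 8 and 0.84 (0.0294) without RVF+ 12. Its RVF difference was 0.15 (0.768).

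The remaining receptors were near background, where RMA compresses differences. Cxcr5, the B cell receptor for Cxcl13, had means of 4.52 in CON, 5.40 in RVF+ and 4.94 in RVF. It was higher in RVF+ (0.87 ± 0.20, 1.83-fold, 5 of 5 arrays above all CON, adjusted p = 0.00283, limma), and its RVF difference was 0.42 (0.192). The gene overlaps Bcl9l. Ccr7, which draws dendritic cells and naive T cells to Ccl19 and Ccl21, had means of 4.79, 5.04 and 5.10. It passed in both comparisons (0.26 ± 0.09, 0.0336, and 0.32 ± 0.09, 0.0237) but not after quantile normalization (0.236 and 0.115) or centring (0.166 and 0.0918). The RVF+ call was also lost without CON 1, CON 4, CON 7, RVF+ 8, RVF+ 10 or RVF+ 12 (adjusted p up to 0.0813), and the RVF call without RVF 14 (0.0686) or RVF 15 (0.108). Ccr8, the receptor for Ccl1 on some T cells, had means of 3.82, 3.31 and 3.37. It was lower in both comparisons, with no overlap of arrays (-0.51 ± 0.10, 0.000784, and -0.45 ± 0.10, 0.00581), and passed with any 1 array left out. Ccr10, the receptor for Ccl27 and Ccl28, whose gene overlaps Cntnap1, had means of 4.57, 4.35 and 4.40. Its RVF+ difference of -0.22 ± 0.08 (0.0404) reached an adjusted p of up to 0.0933 when 1 array was left out.

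As a reference for such levels, the 95th percentile of the means of 60 olfactory receptor genes was 4.82. Ccr8, Ccl1, Ccl28 and Ccr10 lay below it, and Ccr7, Cxcr5, Ccl27 and Xcl1 lay above it. Of the 60 olfactory receptor genes 2 were higher and 4 lower in RVF+, with a median difference of -0.13, and 2 were higher and none lower in RVF, with a median of -0.11. The small falls of the dimmest members stand beside these values, and the part of background signal in them was not tested. Ccr3, Ccr4, Ccr6, Ccr9, Cxcr6 and Xcr1 differed from CON by -0.24 to 0.33 and did not pass. The highest of these was Ccr4, a receptor of regulatory and helper T cells, in RVF+ (adjusted p = 0.146, limma; 0.47 and 0.0243 without RVF+ 11, and 0.13 and 0.452 without RVF+ 8).

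Markers of lymphocytes and dendritic cells were mostly near background. Of 13 T and B lymphocyte markers 11 lay below the limit. In each comparison 2 of the 13 were higher, where 14.1% of all genes were higher in RVF+ and 8.86% in RVF. Without RVF+ 8, 2 of these markers were higher and 1 lower in RVF+, and the median difference of the list was 0.08 in place of 0.25. Cd4, a helper T cell gene that rat macrophages also express, was higher by 0.86 and 0.73, and Cd79b, a B cell gene, by 0.39 and 0.52. The Cd79b calls ended without single arrays, in RVF+ without CON 3, 4 or 6 or RVF+ 10, 11 or 12 (adjusted p up to 0.103), and in RVF without RVF 13 (0.0722) or RVF 15 (0.0704). Of 10 dendritic cell markers 9 were near background. Irf8, Flt3, Clec9a and Ccr7 were higher in RVF+ (3 of the 4 without RVF+ 8, and Clec9a not without RVF+ 10, 0.0778) and Ccr7 in RVF. Fitted on RVF and CON alone, Irf8 (0.51, adjusted p = 0.000251, limma) and Flt3 (0.44, 0.0202) also passed in RVF. Without RVF+ 8 the difference RVF+ minus RVF was -0.02 for Irf8 and -0.02 for Flt3.

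Between RVF+ and RVF 0 of 50 members and 0% of all genes passed in limma. At an unadjusted p of 0.05, 2 members and 7.2% of all genes passed. These were Ccl24, with a difference of -0.53 (95% interval -0.90 to -0.16, unadjusted p = 0.00735), and Xcr1, the receptor for Xcl1, with -0.37 (-0.71 to -0.04, 0.0310). No member's arrays were wholly separate, where 1.74% of all genes were (0.586% higher and 1.15% lower in RVF+). The intervals still leave room for differences. RVF+ minus RVF was 0.26 (-0.50 to 1.03) for Cx3cr1, 0.16 (-0.13 to 0.45) for Cxcr4, -0.13 (-0.77 to 0.52) for Ccl2, 0.34 (-0.22 to 0.90) for Ccl19 and 0.27 (-0.37 to 0.92) for Cxcl11. The calls in RVF+ that did not pass in RVF are therefore not shown to differ between the groups. The median difference of the members was -0.012, beside -0.005 over all genes.

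In the lists of the wider pathway more genes passed as higher than as lower in both groups. Over all genes 14.1% were higher and 13.6% lower in RVF+, and 8.86% and 8.29% in RVF. Of 6 atypical receptors and relatives, which bind chemokines or similar ligands, 3 were higher in RVF+ (4 without RVF+ 8) and 2 in RVF, with none lower. Ackr2, a scavenger of inflammatory CC chemokines, was higher by 0.93 ± 0.20 and 1.19 ± 0.22 (adjusted p = 0.00237 and 0.000926, limma). Cmklr1, the chemerin receptor, was higher by 0.40 (0.0112) and 0.44 (0.0147; 0.0662 without RVF 16). Gpr182, an endothelial scavenging receptor, was higher in RVF+ by 0.81 (0.00938), with -0.01 in RVF. Ackr4, which scavenges Ccl19 and Ccl21, differed by 0.40 (0.226; 0.65 and 0.0128 without RVF+ 8) and 0.04 (0.934).

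Receptor signalling genes were G protein subunits, receptor kinases, arrestins and downstream kinases. Of 28 measured, 19 were higher in RVF+ (median 0.46) and 7 in RVF (0.38), with none lower. Without RVF+ 8, 18 were higher and 1 lower in RVF+. Grk5, a kinase that desensitises receptors, was higher by 0.90 (adjusted p = 5.28e-06, limma) and 0.88 (1.96e-05). Gnai2, the inhibitory G protein subunit, was higher by 0.42 (0.000117) and 0.37 (0.00102), and Gnb1 by 0.36 (0.000201) and 0.36 (0.000670). Elmo1, which links these receptors to cell movement, was higher in RVF+ by 0.37 (0.000532), with 0.15 (0.183) in RVF.

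Among 26 cytokines, receptors and NF-kappaB genes that induce chemokines, 13 were higher in RVF+ (median 0.43) and 9 in RVF (0.25), with none lower. Without RVF+ 8, 12 were higher and 1 lower in RVF+. The interleukin 1 receptor Il1r1 was higher by 0.98 (adjusted p = 1.17e-06, limma) and 0.72 (4.68e-05). Csf1, the macrophage growth factor, was higher by 0.85 and 0.67, Tlr4 by 0.74 and 0.49, and Ikbkb by 0.47 and 0.59. The cytokines Tnf (-0.20 and -0.00), Il1b (0.20 and 0.32) and Il6 (1.14 and 1.14) did not pass. Il6 passed in RVF+ without RVF+ 12 (1.62, 0.0248), but without RVF+ 8 its RVF+ difference was 0.66 (0.374). It also passed in RVF when only RVF and CON were fitted (1.14, 0.0400) or with array quality weights (1.31, 0.0326).

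Of 17 proteases that cut chemokines and proteoglycans that hold them, 6 were higher and 1 lower in RVF+, and 5 and 1 in RVF. The lower gene was Dpp4, which removes the first residues of Cxcl11, Cxcl12 and other chemokines, by -1.13 ± 0.14 (2.18-fold, adjusted p = 2.12e-05, limma) and -0.51 ± 0.15 (0.0271). The RVF call ended without CON 1 (0.0513), RVF 14 (0.0565) or RVF 15 (0.102). Fap, its relative in fibroblasts, was higher by 1.18 (2.84e-06) and 1.13 (1.05e-05). Ctss, a cathepsin of macrophages, was higher by 1.54 and 0.94, and Mmp12, near background, was higher in RVF+ by 1.72 (0.000894) with 1.05 in RVF (0.0516). Fitted on RVF and CON alone, Mmp12 passed in RVF (3.51e-06). Of 14 leukocyte adhesion genes 8 were higher in RVF+ (median 0.62) and 4 in RVF (0.54), with none lower. The endothelial selectins Sele (by 1.36 and 1.46) and Selp (by 1.48 in RVF+, with 0.75 and an adjusted p of 0.0517 in RVF) were higher, both near background over the series. With only RVF and CON fitted, Selp passed in RVF (0.00175). Selplg, the ligand of P-selectin, was higher by 1.12 and 1.28, and Itgb1 by 0.55 and 0.55.

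**Figure D5:**
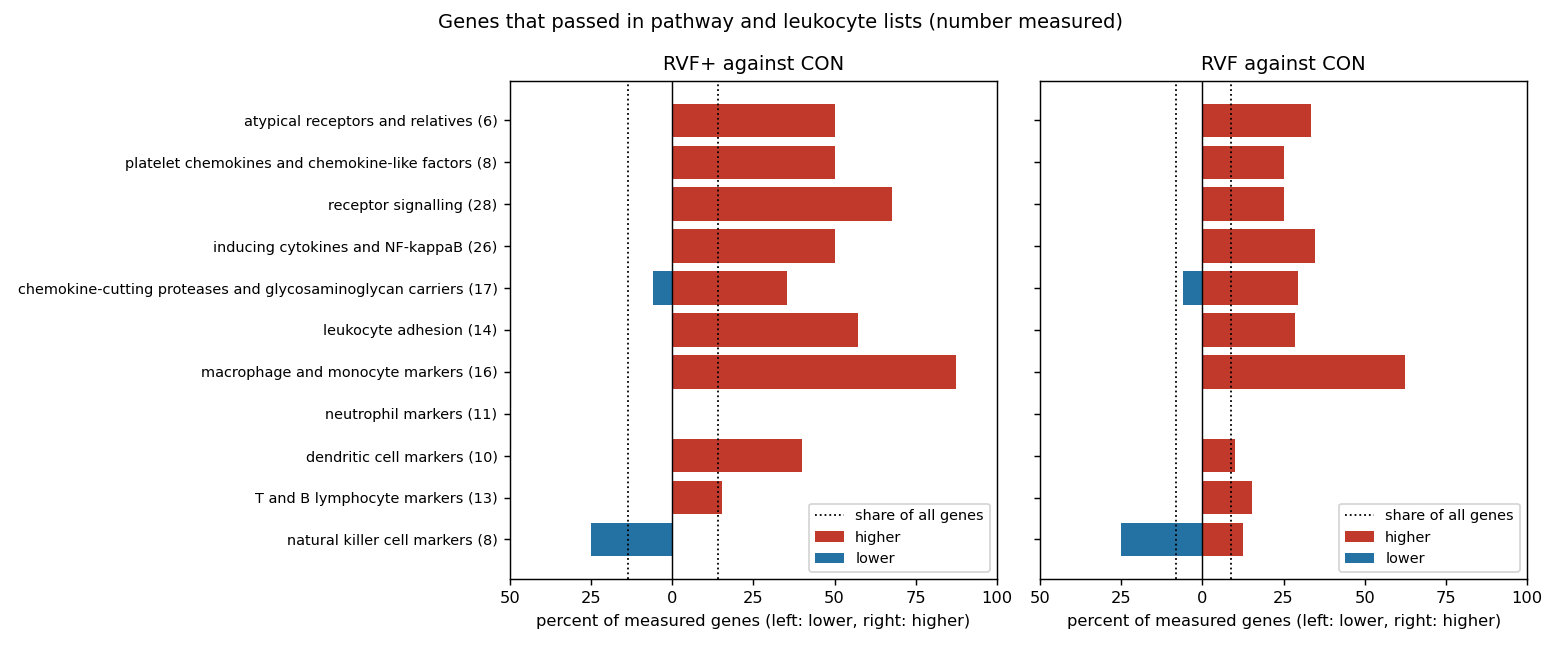
Percent of measured genes that passed as higher (right of 0) or lower (left of 0) than CON in each pathway or leukocyte list (vertical axis, number measured in brackets), for RVF+ and RVF; dotted lines are the shares of all genes. Macrophage and monocyte markers reach the highest share, 14 of 16 and 10 of 16, and none of the 11 neutrophil markers passed.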

How the data were processed

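RNA from 16 samples of right ventricular wall (7 CON, 5 RVF+, 4 RVF, grouped by the condition in the labels) was hybridised to Affymetrix arrays, from 500 ng of total RNA per the labels' protocols. For each array the authors deposited linear intensities of probe sets made by RMA, per the submitters' processing notes. The software is not given in the sources used here. RMA compresses differences of dim probe sets. The deposited intensity values were converted to log2.

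Of 29214 probe sets, 18644 had exactly 1 gene symbol, 962 had several and 9608 were unlisted, and 18460 matched RefSeq (GRCr8). The probe set with the highest mean was taken for each of 17245 genes. Group means were fitted to all 16 arrays with limma 3.58.1 in R 4.3.3 (lmFit, eBayes), two-sided, with Benjamini-Hochberg adjustment over all genes at 0.05. The procedure was tested on simulated data. The number of arrays limits the precision.

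Members, lists and tests were chosen with earlier results of these data known. Values in every array are given for members above the limit that passed, group means for dim members that passed, ligand-receptor pairs whether or not they passed, and up to 4 genes per pathway list by smallest p. Art3 and the members shown for wide spread were named after their values were seen. Alternatives were other normalizations, a dim-gene filter, mean probe sets, a pseudocount, other fits, 2 other definitions of near background, and leaving out each array.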

Additional observations from a re-analysis of the deposited data

Results flagged for a closer look

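Among the 17 members above the background limit, 51 groups of arrays were examined for a single array far from the others, and 4 such arrays were found; chance gives about 1 in 20 groups. Cx3cr1 in RVF+ 8 was 9.35, with the nearest RVF+ array at 7.35. Cxcl12 in RVF+ 8 was 8.29, with the nearest at 8.77. Cxcl11 in RVF 16 was 7.22, with the nearest RVF array at 6.83. Cxcl13 in CON 4 was 7.89, with the nearest CON array at 6.56. RVF+ 8 also had the largest difference from CON over all genes and the highest summed macrophage markers. Without it Cx3cr1 stayed higher in RVF+ (1.32, adjusted p = 3.95e-05, limma). No member passed between RVF+ and RVF.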

How the results depend on the processing

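Alternatives were run for 297 differences of the 50 members and 49 other named genes. None of the 90 called differences changed sign, and the 66 that did in some alternative were uncalled as reported. Of 21 called differences of members 12 passed in every alternative that tested them, and of 69 of other genes 59 did. With genes above the median only, 7 of 17 members were called in RVF+ against CON in place of 14 of 50. There 1 was lower in place of 6, because dim members were not tested, and 45.5% of all genes tested were called. The median of the members was 0.370 in place of 0.132. In RVF against CON that filter gave 4 called, 3 higher, 1 lower and a median of 0.284, where 30.9% of all genes tested were called. Array weights left 10 members called and 5 higher in RVF+, where 25.3% of all genes were called in place of 27.7%. They gave 13 called and 10 higher in RVF, where 27.2% of all genes were called in place of 17.1%. Fitting only the compared groups gave 12 called and 9 higher in RVF, beside 25.9% of all genes. Median centring gave 3 higher and a median of -0.012 in RVF. The causes of the last 3 changes were not tested. Centring moved the median of all genes to -0.106 in RVF+ and -0.092 in RVF, and the genes called higher and lower from 2423 and 2348 to 1757 and 3577 in RVF+, and from 1528 and 1429 to 1084 and 2108 in RVF.

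Leaving out 1 array at a time gave 11 to 16 called in RVF+, where 24.9% to 29% of all genes were called. It gave 6 to 10 higher and 4 to 6 lower in RVF+, with a median of 0.023 (without RVF+ 8) to 0.154. In RVF it gave 3 to 8 called, 1 to 6 higher and 2 lower throughout, with a median of 0.014 to 0.13, while 12% to 16.1% of all genes were called. The lowest counts were without RVF 15 (3 called, 1 higher, 13.2% of all genes) and RVF 14 (4 called, 2 higher, 12.9%). In RVF+ against RVF limma called 0 members in each setting run. Its median ranged from -0.038 to 0.061 with 1 array left out and was 0.065 with genes at or above the median only. By other definitions 24 or 31 members were near background in place of 33. Array signal sets a limit for these genes, whose differences RMA compresses. No paired analysis was possible because the groups share no replicate number in the labels.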

Other observations

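Platelet chemokines and chemokine-like factors were examined beside the members. Of 8 measured, 4 were higher in RVF+ and 2 in RVF, with none lower. For this and the lists below, 14.1% of all genes were higher in RVF+ and 8.86% in RVF. Pf4, the platelet chemokine, differed by 0.86 in RVF+ (adjusted p = 0.00580, limma) and 0.50 in RVF (0.157). Cmtm6 was higher by 0.56 and 0.46, and Cmtm3 by 0.47 and 0.40, in both groups (in RVF not without RVF 13, 0.0604 and 0.0846, nor Cmtm6 without RVF 14, 0.0626), and Cmtm7 by 0.70 in RVF+ (0.0165), with 0.42 in RVF (0.208). Of 6 platelet markers, which include Pf4, 5 were near background; Pf4, Gp9 and Itga2b were higher in RVF+, and in RVF they differed by 0.50, 0.16 and 0.07, which did not pass. The Itga2b call ended without CON 6 (0.0506), RVF+ 9 (0.0758) or RVF+ 10 (0.0780), and Pf4 passed in RVF without CON 5 (0.0437). Their summed intensity ranged from 163 to 289 in CON, from 207 to 384 in RVF+ and from 190 to 301 in RVF, and its part in the Pf4 values was not tested. None of 8 mast cell markers passed in limma in either comparison (at an unadjusted p of 0.05, 3 in RVF+ and 1 in RVF); without RVF+ 8, 2 passed as higher in RVF+. Of 10 fibroblast markers 7 were higher in RVF+ and 6 in RVF, and of 8 endothelial markers 2, Vwf and Esam, were higher in RVF+ (3 without RVF+ 8). Of 6 red cell markers, Hbb, Alas2 and Ahsp were higher in RVF+ (4 markers without RVF+ 8); the summed intensity of the 6 ranged from 1927 to 2462 in CON, from 2229 to 6624 in RVF+ and from 1884 to 4376 in RVF.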
